A study of Mus musculus with 12 samples.

Results

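The genes described here build the contractile apparatus of skeletal muscle, set off its calcium signal and supply its energy, and they were read out in fat. There were 36 such genes, taken by symbol from 2 tables of the authors' own comparison, of which 34 were analysed among 16738 genes of inguinal white fat (iWAT) and 35 among 15363 genes of brown fat (BAT). Tnni1 and Tnnc1 were not analysed in white fat, nor was Myl2 in brown fat. The sources used here do not say which filter on low values the authors applied.

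RNA was sequenced from fat of C57BL/6 mice fed a high-fat diet (HFD) and housed at room temperature, in which the adipocytes lack NDUFS4, a subunit of respiratory complex I (KO), or carry it (WT). The labels give 12 white fat libraries in 4 groups of 3 each: KO females, WT females, KO males and WT males. Age, the Cre driver of the deletion and the number of animals per library are not stated in the labels, so each p-value reflects only how far these libraries scatter, which may be technical. The labels list no brown fat library, and the groups behind that table are known from its name alone. Both tables hold 1 contrast, the difference on the log2 scale between the KO effect of females and that of males, female minus male, called the interaction. Its sign is read from the tables' names, and a value above 0 can come from a higher level in KO females, a lower level in KO males, or from the WT groups. Columns of library values could not be matched to samples and were not used, so values are fitted coefficients with a standard error and depth is unknown.

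A sarcomere is the repeating unit of striated muscle, in which thick filaments of myosin pull on thin filaments of actin held between Z discs. Calcium released from the sarcoplasmic reticulum through the ryanodine receptor binds troponin C and frees the thin filament, and the calcium pump of the reticulum then takes it back up. Fast (type II) and slow (type I) fibres use different genes for myosin, troponin and calcium handling. Adipocytes do not build sarcomeres. In bulk tissue, fewer cells of a type and less RNA per cell cannot be told apart.

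The promoters of 6 genes are shown first. Those of the fast myosin genes Myh2, Myh1 and Myh4 are shown because these genes are neighbours, and those of Casq1, Lmod2 and Myl1 as further members described below. Lmod3 and Cox6a2, on which results below turn, had no RefSeq promoter entry. Each line is the strand of the gene, 5′ to 3′, and holds the 250 bases before the transcription start in RefSeq on GRCm38.p6, a build that differs from that of the deposited tables. The windows are chr11:67170777-67171026 (plus strand) for Myh2, chr11:67199852-67200101 (plus) for Myh1 and chr11:67237562-67237811 (plus) for Myh4. They are chr1:172219896-172220145 (minus) for Casq1, chr6:24597521-24597770 (plus) for Lmod2 and chr1:66945057-66945306 (minus) for Myl1. Capitals mark matches, on either strand, to the E-box CANNTG bound by MyoD-type factors, to the MEF2 consensus and to TATAAA.
Myh2: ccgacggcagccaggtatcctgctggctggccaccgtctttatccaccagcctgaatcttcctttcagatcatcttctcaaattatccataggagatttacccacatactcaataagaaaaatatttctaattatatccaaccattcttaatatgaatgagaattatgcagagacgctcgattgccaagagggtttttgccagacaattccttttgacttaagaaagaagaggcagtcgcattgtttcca
Myh1: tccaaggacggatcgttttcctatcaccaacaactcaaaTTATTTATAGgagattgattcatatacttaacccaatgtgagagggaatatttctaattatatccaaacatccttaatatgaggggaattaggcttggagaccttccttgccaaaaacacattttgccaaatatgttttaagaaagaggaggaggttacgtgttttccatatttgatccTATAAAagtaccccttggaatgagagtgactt
Myh4: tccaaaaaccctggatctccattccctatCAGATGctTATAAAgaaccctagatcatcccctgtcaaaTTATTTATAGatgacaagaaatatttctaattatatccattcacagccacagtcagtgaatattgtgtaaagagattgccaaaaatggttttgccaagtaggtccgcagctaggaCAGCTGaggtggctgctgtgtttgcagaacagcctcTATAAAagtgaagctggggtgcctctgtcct
Casq1: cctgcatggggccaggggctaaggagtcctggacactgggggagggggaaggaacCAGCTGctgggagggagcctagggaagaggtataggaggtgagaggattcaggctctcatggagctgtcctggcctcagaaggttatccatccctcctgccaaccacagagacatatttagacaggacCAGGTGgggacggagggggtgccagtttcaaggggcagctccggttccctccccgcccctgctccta
Lmod2: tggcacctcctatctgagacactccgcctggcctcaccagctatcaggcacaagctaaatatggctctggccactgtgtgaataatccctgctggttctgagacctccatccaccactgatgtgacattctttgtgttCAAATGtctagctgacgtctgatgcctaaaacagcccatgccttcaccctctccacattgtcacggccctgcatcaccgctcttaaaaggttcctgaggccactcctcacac
Myl1: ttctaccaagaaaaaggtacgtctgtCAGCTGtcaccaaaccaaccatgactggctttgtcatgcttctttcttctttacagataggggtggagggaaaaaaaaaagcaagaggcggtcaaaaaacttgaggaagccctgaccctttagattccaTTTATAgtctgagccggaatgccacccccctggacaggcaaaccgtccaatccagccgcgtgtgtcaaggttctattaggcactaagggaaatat
The Myh1 and Myh4 windows each held 1 MEF2 match with the same letters, in which 6 bases also match TATAAA on the other strand. Myh2, which lies next to them, held none of the 3 motifs in this window. Casq1 held 2 E-boxes, Lmod2 held 1, and Myl1 held 1 E-box and 1 TATAAA match. Of the members, 26 had an entry in the RefSeq table, with 32 promoters in all. An E-box stood in 28 of these 32 (87.5%), against 66.2% of 32851 promoters of all genes, a MEF2 match in 5 (15.6%) against 2.92%, and TATAAA in 6 (18.8%) against 12.4%. These counts describe the letters of the windows.

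In white fat the muscle genes lay above 0 in the interaction, with wide errors. Of the 34 members analysed, 32 were above 0, against 55.9% of all genes, and their median was 3.46, against 0.13 over all genes. Genes of one table share its libraries, so counts of members here and below are not counts of separate observations. Whether a few libraries carried them is not known, since library values were not used. Over the 7 members whose mean expression reached 10 on the linear scale the median was 1.88. A single member passed an adjusted p of 0.05 in limma, Lmod3, where 1.06% of all genes passed above 0. At an adjusted p under 0.10, which 4.67% of all genes passed above 0, Casq1 and Myl1 joined it. Without adjustment 5 members (14.7%) had p under 0.05 in limma, all above 0 (Casq1, Lmod3, Myh2, Myl1 and Myom2). Of all genes 11.9% did so above 0 and 24.5% in either direction. The share of members was thus near that of all genes above 0, and below that of either direction. For 29 members the 95% interval held 0. The median standard error of the members was 2.13, against 0.51 over all genes, and at the median 99.2% of genes had a smaller error.

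In brown fat the same genes lay below 0. Of 35 members analysed, 33 were below 0, against 49.0% of all genes, and their median was -2.86, against 0.01 over all genes. None passed the adjusted p of 0.05 in limma, where 0.013% of all genes passed, both of those genes above 0. Without adjustment 16 members had p under 0.05 below 0, where 3.18% of all genes did, and 1 above 0 (Actn2), where 3.33% did. Together these are 17 members, where 6.51% of all genes passed in either direction. Members took 16 of the 50 lowest interactions of the brown fat table and 9 of the 50 highest of the white fat table.

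**Figure D1:**
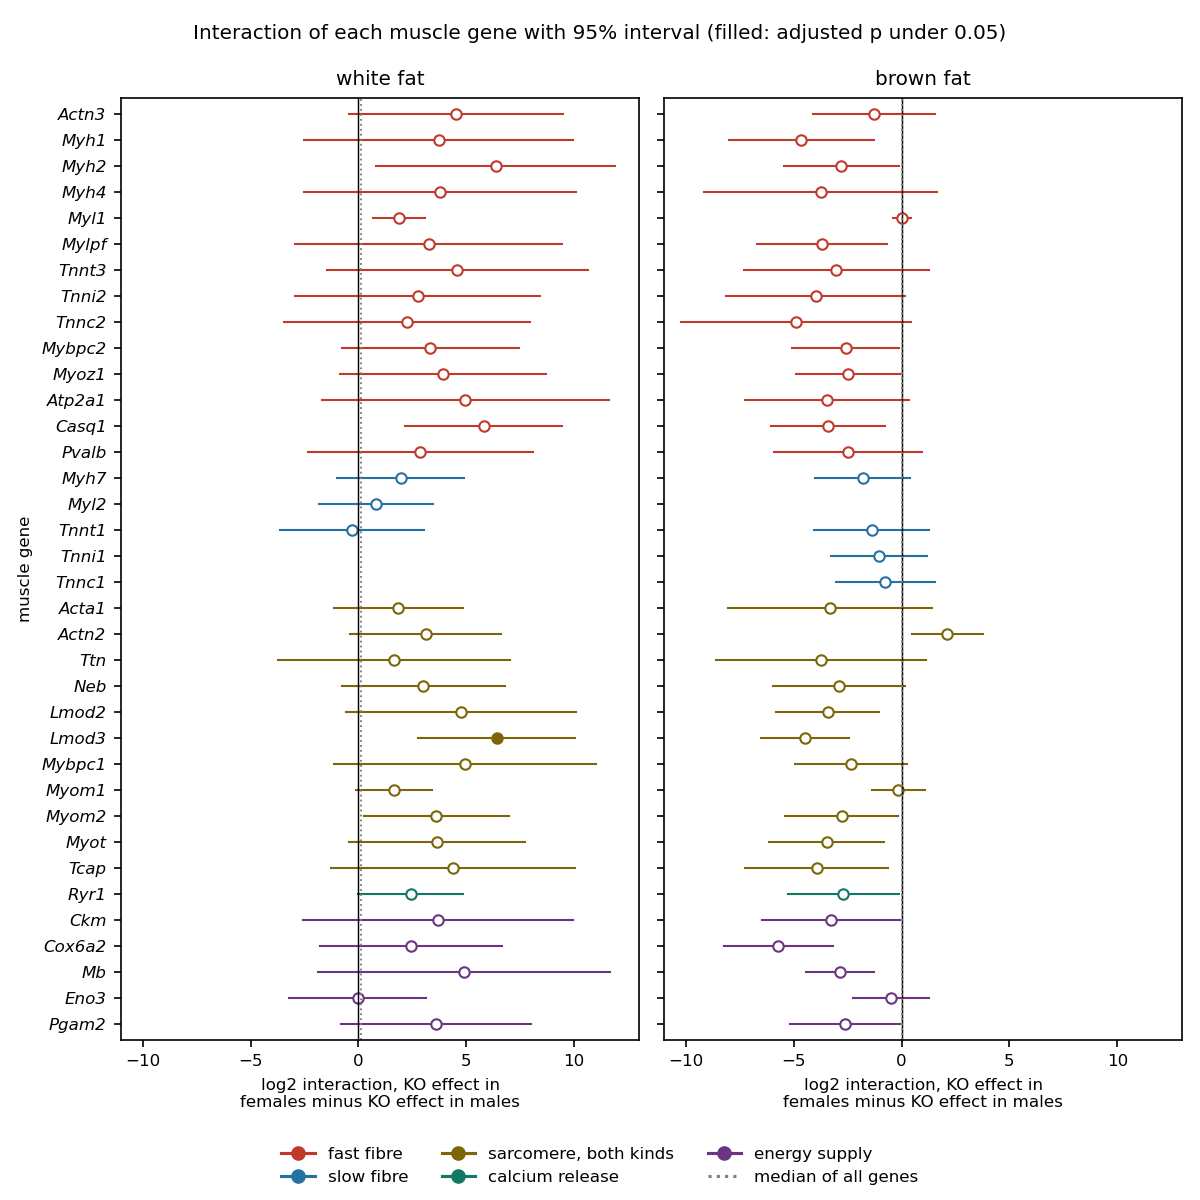
Log2 interaction (KO effect in females minus KO effect in males, horizontal axis) of each muscle gene in white fat (left) and brown fat (right), with points for the authors' fitted value and lines for the 95% interval. White fat points lie above 0 for 32 of 34 genes and brown fat points below 0 for 33 of 35, and Lmod3 in white fat is the single filled point.

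Thick filament genes of fast fibres showed the pattern with large errors. Myh2 encodes the IIA myosin heavy chain of oxidative fast fibres, Myh1 the IIX chain and Myh4 the IIB chain of the fastest fibres. They lie side by side on chromosome 11 (GRCm39), with 2534 bases between Myh2 and Myh1 and 13453 between Myh1 and Myh4. Myh2 was at 6.36 ± 2.57 in white fat (standard error, adjusted p = 0.150) and -2.79 ± 1.31 in brown fat (0.751) in the authors' deposited table of each depot. Myh1 was at 3.71 ± 2.90 and -4.64 ± 1.65, and Myh4 at 3.78 ± 2.92 and -3.74 ± 2.66, white fat before brown fat, in the authors' deposited table of each depot. All 3 thus had opposite signs in the depots, and only Myh2 in white fat and Myh2 and Myh1 in brown fat had an interval clear of 0. These chains are close in sequence, and how the authors' counting divided reads between them is not given, so the split among them is uncertain.

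The light chains had unlike fitted values, most of all in brown fat, and the difference between them was not tested. Mylpf, the regulatory light chain of fast fibres, was at 3.25 ± 2.87 in white fat and -3.70 ± 1.48 in brown fat (adjusted p = 0.504 and 0.690) in the authors' deposited table. Myl1, the essential light chain of fast fibres (ENSMUSG00000061816.16, chromosome 1, 66963454 to 66984563, GRCm39), was at 1.88 ± 0.56 in white fat (adjusted p = 0.0637) and 0.02 ± 0.21 in brown fat (0.990) in the authors' deposited table. The brown fat interval of Myl1 ran from -0.40 to 0.45, and only 8.52% of genes of that table had a smaller standard error. Mean log2 expression of Myl1 was 6.82 in white fat and 7.05 in brown fat, the highest of the members in each table, though these values are not scaled to gene length. The myosin-binding protein C genes lay with the heavy chains, Mybpc2 of fast fibres at 3.34 ± 1.90 and -2.59 ± 1.22 and Mybpc1 at 4.93 ± 2.82 and -2.33 ± 1.28, white fat before brown fat, in the authors' deposited table.

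Thin filament genes held the called member. Lmod3 encodes leiomodin 3, which starts actin filaments and sets thin filament length (ENSMUSG00000044086.9, chromosome 6, 97215495 to 97229720, GRCm39). It was at 6.42 ± 1.69 in white fat (adjusted p = 0.0478, interval 2.78 to 10.06) and -4.46 in brown fat (adjusted p = 0.132, interval -6.49 to -2.43) in the authors' deposited table. That is the 6th highest interaction of the white fat table and the 5th lowest of the brown fat table. Its mean log2 expression was -0.10 in white fat and 0.35 in brown fat, among the lower levels of the members. Lmod2, the related leiomodin, was at 4.74 ± 2.48 and -3.41 ± 1.17 in the authors' deposited table, white fat before brown fat.

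Neb, the giant ruler protein nebulin, was at 3.01 ± 1.76 in white fat and -2.90 in brown fat (interval -5.95 to 0.14) in the authors' deposited table. Acta1, skeletal alpha-actin, was at 1.84 ± 1.39 in white fat and -3.34 ± 2.33 in brown fat in the authors' deposited table. Neither passed in either depot, and their intervals held 0 in both. The fast troponins make up the calcium switch. Tnnc2, the calcium sensor, was at 2.26 ± 2.65 and -4.89 ± 2.62, Tnni2, the inhibitory subunit, at 2.75 ± 2.64 and -3.99 ± 2.05, and Tnnt3, the tropomyosin-binding subunit, at 4.59 ± 2.81 and -3.02 ± 2.12, white fat before brown fat, in the authors' deposited table. Tnni2 and Tnnt3 lie 54425 bases apart on chromosome 7, which held 9 of the 36 members, the most of any chromosome.

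By their medians, slow fibre genes had a lower mean expression and an interaction nearer 0 than fast fibre genes in both depots, though single genes of the kinds overlapped. The 14 fast fibre members had a median interaction of 3.75 in white fat and -3.22 in brown fat, with all 14 above 0 in white fat and 13 of 14 below 0 in brown fat. Over the members whose mean expression reached 10 on the linear scale, the fast fibre median was 2.26 in white fat (Myh4, Myl1 and Tnnc2) and 0.023 in brown fat (Myl1 alone), and no slow fibre member was left. The slow fibre members had medians of 0.80 over the 3 analysed in white fat and -1.21 over the 4 analysed in brown fat. Median mean log2 expression of the slow members was -0.91 in white fat and -0.15 in brown fat, against 2.52 and 1.97 for the fast members. The difference between fibre kinds was not tested, and no slow member passed in either table. Myh7, the slow myosin heavy chain that the heart also uses, was at 1.95 ± 1.36 in white fat and -1.80 ± 1.08 in brown fat in the authors' deposited table. Tnnt1, slow troponin T, was at -0.30 ± 1.55 and -1.39 ± 1.31 in the authors' deposited table, white fat before brown fat, and was below 0 in both depots. In the authors' deposited table the slow light chain Myl2 was at 0.80 ± 1.23 in white fat, and of the slow troponins Tnni1 was at -1.03 ± 1.09 and Tnnc1 at -0.75 ± 1.13 in brown fat.

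At the Z disc and M band most genes followed the fast fibre genes, and 2 did not. Tcap, which caps titin at the Z disc, was at 4.38 ± 2.62 and -3.93 ± 1.63, Myot, which cross-links actin there, at 3.62 ± 1.89 and -3.47 ± 1.31, and Myoz1, a calcineurin-binding Z disc protein, at 3.92 ± 2.22 and -2.48 ± 1.19, white fat before brown fat, in the authors' deposited table. Actn3, the alpha-actinin of fast fibres, was at 4.53 ± 2.30 in white fat and -1.27 ± 1.39 in brown fat in the authors' deposited table. Actn2, the alpha-actinin of all fibres and of heart, was above 0 in both depots, at 3.11 ± 1.62 in white fat (adjusted p = 0.252) and 2.13 ± 0.81 in brown fat (adjusted p = 0.690, unadjusted p = 0.0126), in the authors' deposited table. Its mean log2 expression was 0.39 in white fat and 2.38 in brown fat.

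Ttn, titin, the spring that spans from Z disc to M band, was at 1.66 ± 2.49 and -3.74 ± 2.40 in the authors' deposited table, white fat before brown fat. The M band genes Myom2 and Myom1 had unlike fitted values, and the difference between them was not tested. Myom2 was at 3.61 ± 1.55 and -2.77 ± 1.29, and Myom1 at 1.63 ± 0.82 and -0.16 ± 0.60, white fat before brown fat, in the authors' deposited table. Myom1, like Myl1, lay near 0 in brown fat.

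Genes of calcium storage and release had opposite signs in the depots. Casq1 encodes calsequestrin 1, the calcium store of the reticulum of fast fibres (ENSMUSG00000007122.12, chromosome 1, 172037461 to 172047435, GRCm39). It was at 5.80 ± 1.69 in white fat (adjusted p = 0.0614) and -3.41 ± 1.29 in brown fat (adjusted p = 0.690) in the authors' deposited table. Ryr1, the release channel, was at 2.41 ± 1.13 and -2.70 ± 1.26, and Atp2a1, the fast fibre calcium pump SERCA1, at 4.96 ± 3.09 and -3.46 ± 1.87, white fat before brown fat, in the authors' deposited table. Pvalb, the calcium buffer parvalbumin of fast fibres, was at 2.86 ± 2.42 in white fat and -2.49 ± 1.69 in brown fat in the authors' deposited table. Of these 4, Casq1 had an interval clear of 0 in both depots and Ryr1 in brown fat.

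Energy genes gave the lowest value of the brown fat table and also a gene that lay near 0. Cox6a2 encodes the heart and muscle form of a cytochrome oxidase subunit (ENSMUSG00000030785.9, chromosome 7, 127804607 to 127805559, GRCm39). It was at 2.43 ± 1.95 in white fat (adjusted p = 0.460) and -5.72 ± 1.24 in brown fat (adjusted p = 0.131, interval -8.25 to -3.19) in the authors' deposited table. The whole 953 bases of Cox6a2 lie within Itgad on the other strand, and the strand setting of the counting is not given. Itgad was at 1.85 ± 1.43 in white fat in the authors' deposited table and was not analysed in brown fat. The whole 3418 bases of Tnnc1 likewise lie within Nisch on the other strand. Atp2a1, Mb, Mybpc2, Myom1, Tnnc2 and Tnnt3 overlap a gene of the other strand in part, so their reads are uncertain in the same way.

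Mb, myoglobin, which stores oxygen, was at 4.88 ± 3.15 in white fat (adjusted p = 0.353) and -2.86 ± 0.78 in brown fat (adjusted p = 0.343, unadjusted p = 0.000793) in the authors' deposited table. Its mean log2 expression was 1.76 in white fat and 4.36 in brown fat, and whether the tables share a scale is not known. Ckm, muscle creatine kinase, was at 3.69 ± 2.91 and -3.27 ± 1.58, and Pgam2, muscle phosphoglycerate mutase, at 3.58 ± 2.04 and -2.63 ± 1.26, white fat before brown fat, in the authors' deposited table. Eno3, the muscle enolase, was at -0.04 ± 1.46 in white fat and -0.49 ± 0.86 in brown fat in the authors' deposited table. For Eno3 both intervals held 0, and they ran from -3.20 to 3.11 and from -2.23 to 1.25.

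**Figure D2:**
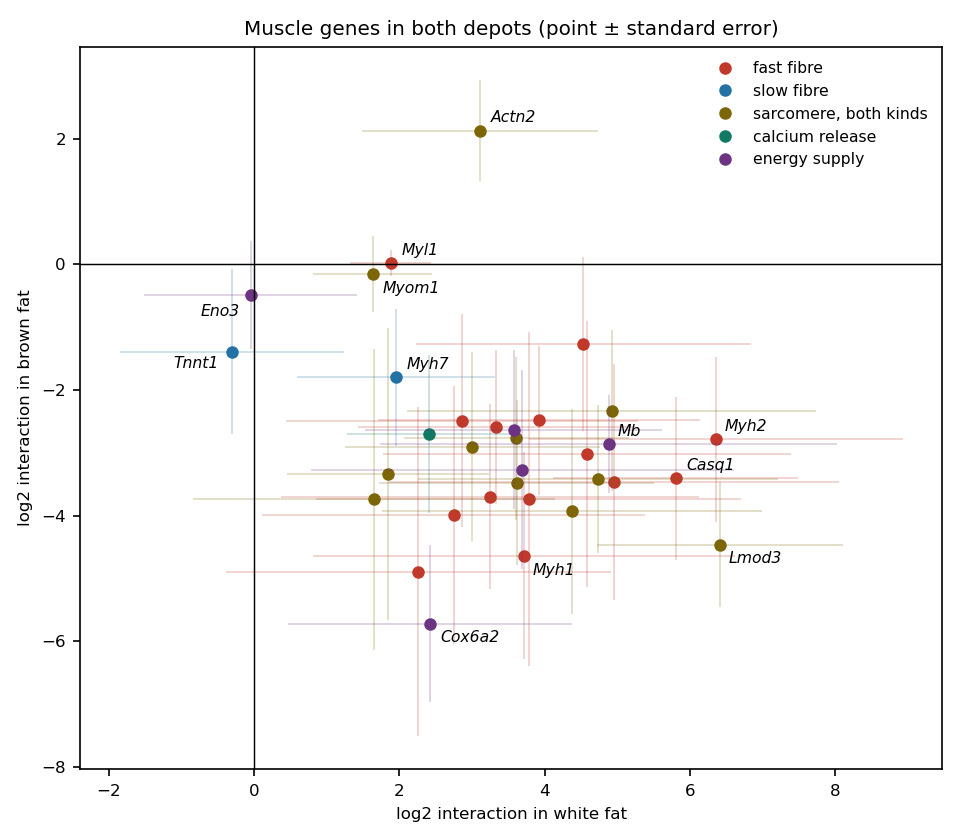
Log2 interaction in white fat (horizontal) against that in brown fat (vertical) for the 33 muscle genes analysed in both depots, with bars of 1 standard error. The 29 genes in the lower right quadrant were above 0 in white fat and below 0 in brown fat, and Actn2, Myl1, Eno3 and Tnnt1 lie outside it.

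Did the depots differ? The difference of the interactions, white fat minus brown fat, was above 0 for all 33 members analysed in both tables, against 58.4% of 14502 shared genes. Its median was 6.73, against 0.20 over the shared genes. For 29 of the 33 the interaction was above 0 in white fat and below 0 in brown fat, against 26.3% of shared genes. Lmod3 was the member whose difference passed an adjusted p of 0.05, where 0.0896% of shared genes passed above 0, 0.159% below 0 and 0.248% in either direction. For Lmod3 the difference was 10.88 ± 1.96 (adjusted p = 0.0155 by a t-statistic on the limma estimates), the 11th smallest p of all shared genes. Casq1 came next with 9.21 ± 2.13 (adjusted p = 0.0519 by the same statistic). Without adjustment 23 of the 33 had p under 0.05, all above 0, where 9.73% of shared genes did so above 0. The test takes the depots as independent, which the labels do not state, and with the smaller total degrees of freedom Lmod3 had an adjusted p of 0.203 and no gene passed.

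Members with small differences were Eno3 at 0.44 ± 1.70, Actn2 at 0.98 ± 1.81 and Tnnt1 at 1.09 ± 2.03, and their 95% intervals (-3.06 to 3.95, -2.79 to 4.75 and -3.04 to 5.21) do not show that the depots acted alike. Myl1 had a difference of 1.86 ± 0.60 (adjusted p = 0.155 over shared genes, from limma estimates). That was below the member median of 6.73, but the error was small and the 95% interval (0.60 to 3.11) was clear of 0. Across the 33 genes the interactions of the depots had a Pearson r of -0.32 and a Spearman rho of -0.25, given as a description over genes that share libraries. Mean log2 expression was higher in the white fat table for 24 of the 33 (72.7%), close to the 74.9% of all shared genes.

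The muscle genes had the largest standard errors of the brown fat table. Such an error reflects the spread of libraries within groups, and the 8 largest of 15363 in brown fat all belonged to members. In order they were Myh4 (2.66), Tnnc2 (2.62), Ttn (2.40), Acta1 (2.33), Tnnt3 (2.12), Tnni2 (2.05), Atp2a1 (1.87) and Pvalb (1.69), computed from the authors' deposited table. In all 18 of the 50 largest errors in brown fat were those of members, and 8 of the 50 largest in white fat. Small errors were the exception: 5 members had one under 1 in brown fat (Actn2, Eno3, Mb, Myl1 and Myom1), and 2 in white fat (Myl1 and Myom1). The median error over all genes was 0.59 in brown fat and 0.51 in white fat.

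**Figure D3:**
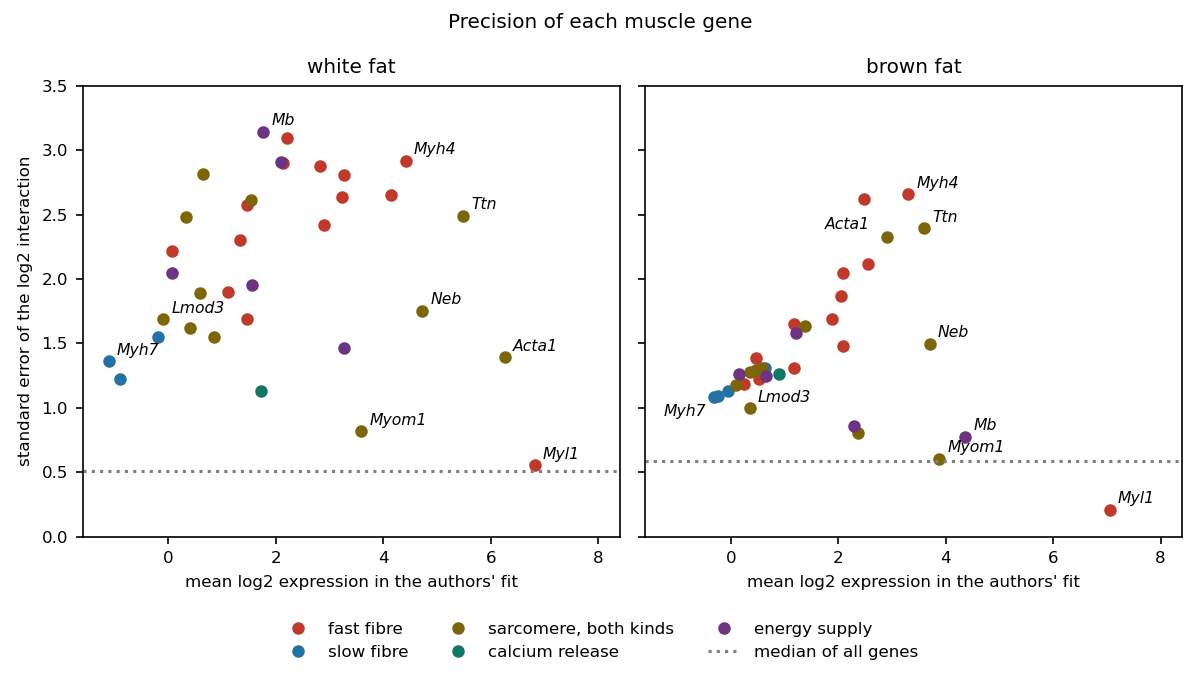
Standard error of the log2 interaction (vertical) against the mean log2 expression of the authors' fit (horizontal) for each muscle gene in white fat (left) and brown fat (right), with a dotted line at the median error of all genes. Most muscle genes lie well above the dotted line, Myh4 has the largest error in brown fat at 2.66, and Myl1 lies lowest in both depots.

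Other muscle genes, from lists that share no gene with the members, had the same signs for the sarcomere and for calcium, but not for energy. Of 24 other sarcomere and Z disc genes analysed in white fat, 23 were above 0 (median 2.52), and of 21 in brown fat 19 were below 0 (median -1.46). None passed in either table. By the smallest p in white fat they were Tpm3, a tropomyosin made in most cells, at -1.08 ± 0.29 (adjusted p = 0.0509), Mylk2, the skeletal myosin light chain kinase, at 4.10 ± 1.40, Flnc, filamin C, at 2.99 ± 1.07, and Tpm2, beta-tropomyosin, at 2.29 ± 0.96, in the authors' deposited table. In the authors' deposited table for brown fat Tpm3 was at -0.17 ± 0.26, Mylk2 at -2.45 ± 1.18, Flnc at -0.37 ± 1.14 and Tpm2 at -2.40 ± 1.02.

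Of 16 other genes of calcium handling and excitation, 14 were above 0 in white fat (median 1.40), and 12 of 15 were below 0 in brown fat (median -0.38), with none called. Atp2a2, the calcium pump SERCA2 of slow muscle, heart and most other cells, was at 1.19 ± 0.35 and 0.09 ± 0.17, and Srl, sarcalumenin of the reticulum, at 4.09 ± 1.23 and 0.13 ± 0.34, white fat before brown fat, in the authors' deposited table. Junctophilins tie the reticulum to the cell membrane. In the authors' deposited table Jph2 was at 3.21 ± 1.10 in white fat and -0.04 ± 1.16 in brown fat, and Jph1 was at 0.97 ± 0.41 in white fat, with -0.05 ± 0.46 for the brown depot.

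All 13 other muscle energy genes were above 0 in white fat (median 2.54), but only 3 of 12 were below 0 in brown fat (median 0.13), and none passed in either. Cox7a1 and Cox8b stand both in this list and in the thermogenic adipocyte list below, so these lists are not separate readouts. Median mean log2 expression of this list in brown fat was 5.21, against 1.17 for the members, and its single genes ranged from 0.25 to 11.23. Whether muscle or fat cells gave these reads was not tested. Gpd1, glycerol-3-phosphate dehydrogenase, was at 1.41 ± 0.53 and 0.48 ± 0.13, Pygm, muscle glycogen phosphorylase, at 4.66 ± 1.78 and -2.10 ± 0.97, and Pfkm, muscle phosphofructokinase, at 2.21 ± 0.89 and 0.48 ± 0.33, white fat before brown fat, in the authors' deposited table. Pygm thus had the signs of the members and the other pair did not.

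Among myogenic regulators 3 genes were analysed in white fat and 2 in brown fat. Mef2c, a transcription factor of muscle that lymphocytes and vessels also make, was called below 0 in white fat at -1.89 ± 0.49 (adjusted p = 0.0460) and stood at -0.74 ± 0.27 (0.625) in brown fat, in the authors' deposited table. The defining genes of muscle stem cells and early myocytes, Pax7, Myf5, Myod1 and Myog, were not analysed here.

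Markers of other cells moved in white fat beside the muscle genes, and their part in the muscle result was not tested. All 10 thermogenic adipocyte genes analysed of 11 were above 0 in white fat (0.69 to 4.47, median 3.19, 1 called), where the T cell genes, 8 of 8, lay below 0 (-9.15 to -5.16, 8 called, where 3.69% of all genes were called below 0) and so did the B cell genes, 8 of 8 (-11.43 to -5.22, 4 called). The 4 mammary genes analysed of 6 were above 0 (1.25 to 3.22), and so were all 8 smooth muscle genes (0.34 to 2.57) and all 8 adipocyte genes (0.05 to 1.56), with none called. In brown fat none of these lists had a called gene, and medians were 0.11 for thermogenic genes, 0.20 for smooth muscle, 0.21 for adipocytes, 0.69 for the 3 T cell genes analysed and 0.31 for the 4 B cell genes. Cardiac markers could be read only from Myl4 and Ankrd1, with a median of 1.03 in white fat and 0.00 in brown fat.

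Markers of fat were also read. The brown fat table is known by its name alone, and whether the tables share a scale is not known. Mean log2 expression of Adipoq, the adiponectin gene, was 11.12 in white fat and 10.35 in brown fat, and that of Ucp1, the uncoupling protein of brown adipocytes, was 4.36 and 12.54, in the authors' deposited table of each depot. The targeted gene Ndufs4 had an interaction of 0.89 ± 0.38 in white fat (adjusted p = 0.169) and -0.10 ± 0.14 in brown fat (0.946) in the authors' deposited table, which does not check the genotype labels.

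**Figure D4:**
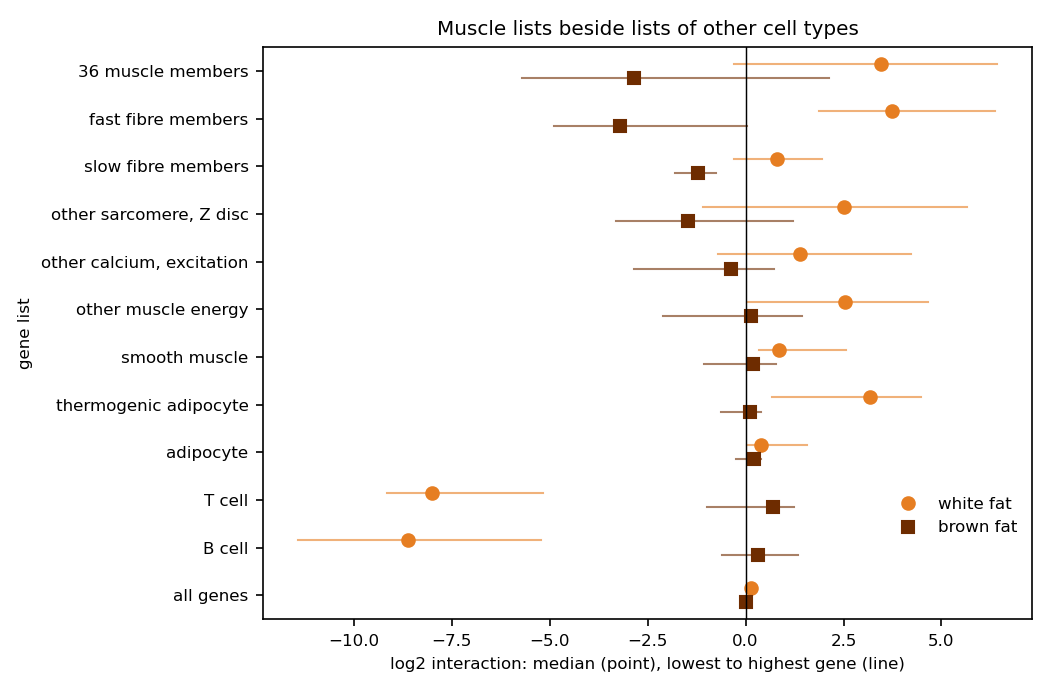
Median log2 interaction (point) and its lowest to highest gene (line) for the muscle lists and for lists of other cell types, in white fat and in brown fat, with the median alone for all genes. Muscle members have medians of 3.46 in white fat and -2.86 in brown fat, while thermogenic genes are at 3.19 and 0.11 and the B cell genes at -8.61 and 0.31.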

How the data were processed

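The submitters' processing notes name featureCounts, limma and the GRCm39 build. Versions, aligner, annotation, normalisation and strand setting: not given in the sources used here. Per the file headers, the authors deposited for each depot the log2 interaction, the mean log2 expression, the moderated t-statistic (a score), its p-value and an adjusted one. Recomputing the Benjamini-Hochberg adjustment gave the deposited values. The 48 columns of library values in 4 tables, 12 each, match no label and were used in no step, so the limma fit planned for that case was not made. The standard error is the interaction over t, and its 95% interval uses the total degrees of freedom recovered from t and p (13.4 in white fat, 33.9 in brown fat). The depot difference used both errors, Welch-Satterthwaite degrees of freedom and adjustment over 14502 shared genes. Its code was run on simulated data drawn with independent depots and the recovered degrees of freedom, so that run could test neither of these assumptions. All p-values are two-sided.

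Members and lists were chosen with earlier results of these data known. All members may be named, with Ndufs4 and up to 4 genes of each other muscle list by smallest p in white fat (1 such gene is not reported here), while Adipoq, Ucp1 and Itgad were chosen after their values were seen. Alternatives were the threshold, a filter on low expression, protein-coding genes, centring, degrees of freedom and leaving out 4 members. Promoters came from RefSeq tables. Computation used scipy 1.17.1 and pandas 2.3.3 with numpy 2.4.6 in Python 3.11.15, and figures were drawn with matplotlib 3.10.9.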

Additional observations from a re-analysis of the deposited data

Results flagged for a closer look

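Lmod3 differed between the depots in a test of the difference itself, which was 10.88 ± 1.96 on the log2 scale (white fat minus brown fat, adjusted p = 0.0155 from limma estimates), with an interaction of 6.42 in white fat and -4.46 in brown fat. The test takes the depots as independent, which the labels do not state. With the smaller total degrees of freedom Lmod3 had an adjusted p of 0.203 and 0 genes passed, and a filter on low mean expression removed Lmod3. At this threshold 36 of 14502 shared genes passed, 13 above 0 and 23 below.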

How the results depend on the processing

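No value of a named member changed sign under any alternative run, and 1 median did; the cause of each shift was not tested. With a threshold of 0.10, white fat had 781 genes called above 0, 1246 below and 3 members (Casq1, Lmod3 and Myl1), and the depot difference, in this case chosen after seeing the data, had 101 above 0, 134 below and 2 members. Keeping genes whose mean expression reached 10 on the linear scale gave 365 genes called below 0 in white fat and 0 members called in white fat or in the depot difference. By construction that filter left 7 members in white fat and 5 in brown fat, no slow fibre member, and in brown fat a single fast fibre member, Myl1, at 0.023, the median that changed sign, from -3.22. White fat medians under it were 1.88 over members and 2.26 over fast fibre members. Depot medians under it were 3.63 over members and 1.86 over fast fibre members. Centring on the median of all genes gave 108 genes called above 0 and 852 below in white fat, against 177 and 618 as deposited. In the depot difference it gave 10 above 0 and 48 below, with 2 members above 0 (Lmod3 and Casq1). With the smaller total degrees of freedom the depot difference had 0 genes called in either direction and 0 members. Protein-coding genes only, and leaving out Atp2a1, Ckm, Cox6a2 and Mb, moved no count of calls or median beyond these bounds. Replicates could not be left out and pseudocounts could not be varied without library values. No paired analysis was possible because the columns of library values carry no replicate number. The depth is unknown.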
